A study of Mus musculus with 8 samples.

Results

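Growth hormone signalling was examined through 10 genes chosen by name, namely Ghr, Jak2, Stat5a, Stat5b, Igf1, Igfals, Socs2, Cish, Bcl6 and Cux2, out of 27277 genes in the count table, together with the ChIP regions that lie over them. All 10 had a row, and all 10 passed the filter on low counts that left 15135 genes for testing. The cells were mouse primary hepatocytes isolated from liver, cultured for 24 h and given 100 nM glucagon for 12 h, so all libraries share the hormone and its effect cannot be read here. The knockout cells were Lcmr1 f/f with albumin-cre, a recombinase driven by the albumin promoter and so active in hepatocytes, and the control cells were Lcmr1 f/f. Lcmr1, now called Med19, belongs to Mediator, through which transcription factors reach RNA polymerase II. The RNA assay covered 3 knockout and 3 control libraries, and the ChIP assay 1 knockout and 1 control library. The age and sex of the mice are not given in the labels. Separate animals or cultures are not named for the numbered libraries, so the p-values measure the spread between these libraries, which may be technical. The ChIP titles name RNA polymerase III while the design text of the series names Lcmr1, so the precipitated protein is not settled by the labels.

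Growth hormone from the pituitary binds its receptor, GHR, on hepatocytes and activates the receptor-bound kinase JAK2, which phosphorylates the transcription factors STAT5A and STAT5B. STAT5 dimers enter the nucleus, bind DNA and switch on Igf1 and Igfals, whose products carry the growth signal in the blood, and Socs2 and Cish, whose products restrain the receptor. In mouse liver the pulsatile hormone pattern of males and the near-continuous pattern of females give rise to large sex differences in liver genes. The repressors BCL6, the more abundant one in males, and CUX2, found in female liver, are part of that system. No growth hormone is named among the agents the cells received.

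STAT5 dimers recognise the palindrome TTCNNNGAA, which reads the same on both strands. As examples, 3 gene-start windows that hold the letters or lie under a control ChIP region are shown. Other windows of these genes that hold the letters or lie under such a region are not shown. They run from 250 bases before to 50 bases after a gene start, and the sequences are those of RefSeq on GRCm38.p6. Capitals mark each match, and none of the matches overlap.
Cish, chr9:107296409-107296708, plus strand: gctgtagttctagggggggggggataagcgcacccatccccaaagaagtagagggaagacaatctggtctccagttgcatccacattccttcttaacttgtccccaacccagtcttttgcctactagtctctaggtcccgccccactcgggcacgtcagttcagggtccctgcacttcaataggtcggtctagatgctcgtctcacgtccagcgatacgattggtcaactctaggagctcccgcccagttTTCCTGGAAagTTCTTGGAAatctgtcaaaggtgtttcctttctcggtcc
Bcl6, second RefSeq start, chr16:23981234-23981533, minus strand: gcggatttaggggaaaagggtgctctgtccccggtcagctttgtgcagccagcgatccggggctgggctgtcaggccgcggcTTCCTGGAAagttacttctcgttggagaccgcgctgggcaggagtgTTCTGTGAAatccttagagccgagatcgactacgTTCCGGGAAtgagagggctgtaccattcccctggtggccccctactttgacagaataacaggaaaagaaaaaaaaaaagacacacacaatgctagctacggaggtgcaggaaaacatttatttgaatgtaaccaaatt
Igf1, chr10:87860861-87861160, plus strand: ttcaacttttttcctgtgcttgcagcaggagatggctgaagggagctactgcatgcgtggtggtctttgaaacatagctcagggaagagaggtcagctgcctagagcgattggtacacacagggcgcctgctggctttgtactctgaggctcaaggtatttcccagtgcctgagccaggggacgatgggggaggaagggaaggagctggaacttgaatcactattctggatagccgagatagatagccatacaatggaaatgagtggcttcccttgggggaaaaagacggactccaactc

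The Cish window holds 2 matches in tandem, which begin at bases 1 and 12 after the RefSeq start. The Bcl6 window holds 3, at 168, 122 and 88 bases before its start, and the Igf1 window holds none in these letters. Of 32851 gene-start windows of the same length, 8.3% held at least 1 match, 0.457% held 2 or more, and 11 windows held 3 or more. Among the 16 windows of the 9 genes found in the RefSeq table, 5 held a match, namely the Cish window, both Bcl6 windows and 2 of the 3 Igfals windows. Socs2 had no window there. The windows of Ghr, Jak2, Stat5a, Stat5b and Cux2 held none. With 1 more base in the spacer, the letters were in 6.95% of all windows and in 0 of the 16. A match is a description of letters and does not show binding.

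The targeted gene, listed as Med19, had 90, 166 and 97 counts in knockout libraries, against 154, 226 and 248 counts in control libraries, and fell to 0.355 of the control level (edgeR adjusted p = 0.012). In CPM these were 2.91, 5.27 and 3.02 in knockout libraries and 7.5, 10.8 and 13.4 in control libraries, without overlap. Total counts ranged from 25305697 to 26344039 in the knockout libraries and from 22191786 to 26595249 in the control libraries. Levels are given as CPM, the share of a library's counts scaled by TMM factors, which set the bulk of genes as level. When libraries were scaled by their size alone, the median over all genes shifted by 0.588 on the log2 scale, so every change below is relative to the bulk of genes. Control replicate 1 stood apart from the other controls, at chi-square values per degree of freedom of 134.9 and 129.4 against them, where control replicates 2 and 3 gave 6.84. Knockout replicate 1 gave 26.67 and 24.84 against replicates 2 and 3, and knockout replicates 2 and 3 gave 49.52. Among all genes tested 12.6% rose and 13.0% fell by the test described below. Of 8 hepatocyte markers all 8 fell, and their summed levels were 25470 to 34130 CPM in knockout libraries and 100300 to 113300 CPM in control libraries. Of 12 macrophage markers 10 rose, with summed levels of 835 to 986 CPM in knockout libraries and 419.6 to 513.8 CPM in control libraries, and none was at 0 in any library. Of 8 endothelial markers 1 rose (summed 303 to 478.8 CPM in knockout and 249.2 to 306.6 CPM in control libraries) and of 8 stellate cell and fibroblast markers 1 rose (221.1 to 259.2 CPM in knockout and 111.7 to 208.5 CPM in control libraries). The median log2 fold changes of these 2 lists were 0.41 and 0.57. At an unadjusted p under 0.05 in edgeR, 4 and 4 were higher and none lower, and DESeq2 called 1 and 3 that rose. Of the 5 cholangiocyte and 5 lymphocyte or neutrophil markers tested, 0 passed in edgeR and 0 in DESeq2, while 1 and 2 were higher in the knockout at an unadjusted p under 0.05. The share of all genes at that unadjusted limit was not counted. In such bulk samples, fewer hepatocytes and less RNA per hepatocyte cannot be told apart, and the part of these markers in the results below was not tested.

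Xist, transcribed from the inactive X chromosome in female cells, had 2, 4 and 6 counts in the knockout libraries and 6, 0 and 8 counts in the control libraries, and its antisense partner Tsix had at most 2 counts in any library. The Y-linked genes Ddx3y, Eif2s3y, Kdm5d and Uty were detected in all 6 libraries. Ddx3y had 1147, 1094 and 1042 counts in knockout libraries and 1141, 606 and 750 counts in control libraries, and Eif2s3y had 1385, 1686 and 1750 counts in knockout libraries and 862, 1076 and 1029 counts in control libraries. Kdm5d had at least 311 counts in every library. Uty had 11, 10.7 and 11 CPM in knockout libraries, against 8.23, 7.15 and 7.76 CPM in control libraries, and rose (log2 value 0.50, edgeR adjusted p = 0.04). The X-linked partners Kdm6a and Eif2s3x were detected in every library too. Both groups thus carried Y-linked transcripts and only a few Xist counts.

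Of the 10 genes, Igf1 and Ghr fell in the knockout and Cux2 and Stat5a rose. The groups did not overlap for 6 genes, those 4 together with Socs2 and Cish, both lower in the knockout without passing the test. Jak2, Stat5b, Igfals and Bcl6 overlapped between groups. The test was edgeR's quasi-likelihood test, with p-values adjusted by Benjamini-Hochberg over all 15135 genes and a threshold of 0.05. Over all genes tested, 25.5% passed (12.6% rose and 13.0% fell). In 45.9% the groups did not overlap, with the knockout higher in 23.5% and lower in 22.4%. For the 10 genes, the counts were 2 that rose, 2 that fell, 2 higher without overlap and 4 lower without overlap, on which no statement about the genes as a group rests. Their median log2 fold change was -0.21, against 0.01 for all genes tested.

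**Figure D1:**
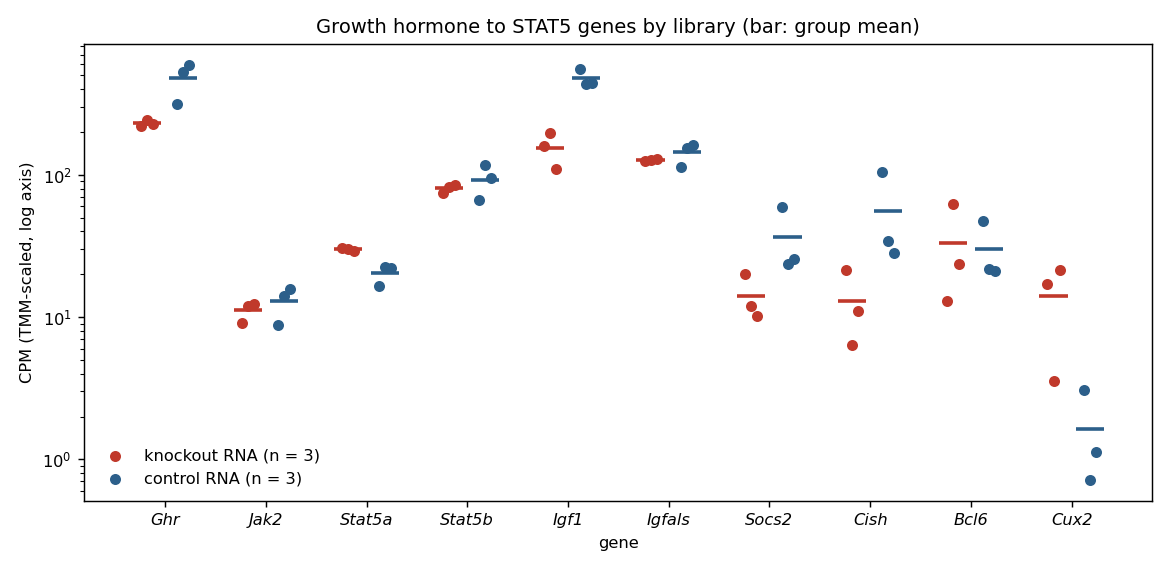
Levels of the 10 genes in CPM on a log axis, with 1 point per RNA library and a bar at the arithmetic mean of each group (knockout left, control right, n = 3 each). The groups are apart for Ghr, Stat5a, Igf1, Socs2, Cish and Cux2, and the control libraries of Socs2 and Cish spread widely, with control replicate 1 at 59.6 and 104.8 CPM.

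Ghr encodes the growth hormone receptor (ENSMUSG00000055737, chromosome 15, 3317760 to 3583492, mm10, minus strand). It had 222, 245 and 228 CPM in knockout libraries, against 315, 531 and 594 CPM in control libraries. All knockout libraries were below all controls, and control replicate 1 was the lowest control. The means were 231 ± 11.8 CPM in knockout and 480.2 ± 146 CPM in control libraries (SD, n = 3 each). Ghr fell by 1.05 on the log2 scale (SE 0.22, edgeR adjusted p = 0.0131). With scaling by library size only, Ghr stayed lower but no longer passed (log2 fold change -0.48, edgeR adjusted p = 0.127), and without knockout replicate 1 the edgeR adjusted p was 0.0536.

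Jak2, the kinase bound to the receptor (ENSMUSG00000024789, chromosome 19, 29251828 to 29313080, plus strand), had 9.07, 12 and 12.4 CPM in knockout libraries and 8.77, 14.1 and 15.8 CPM in control libraries. The groups overlapped, and the log2 fold change of -0.21 (SE 0.24, edgeR adjusted p = 0.557) turned to 0.37 under library size alone.

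Stat5a and Stat5b lie beside each other on chromosome 11 and encode the closely related signal transducers. Stat5a (ENSMUSG00000004043, 100859351 to 100885169, plus strand) had 30.6, 30.1 and 29.1 CPM in knockout libraries, against 16.6, 22.5 and 22.1 CPM in control libraries. The knockout libraries lay close together and above all controls. On the log2 scale the difference was 0.56 (SE 0.14, edgeR adjusted p = 0.0258), and the call ended without control replicate 3 (edgeR adjusted p = 0.0555) and without knockout replicate 1, 2 or 3 (0.0865, 0.0753 and 0.0596 in edgeR). Over 72 bases Stat5a overlaps the Stat3 gene on the other strand, and the strand setting of the counting is not given. Stat5b, the more important form for growth hormone in liver (ENSMUSG00000020919, 100780731 to 100850724, minus strand), had 74.8, 81.5 and 84.3 CPM in knockout libraries and 66.4, 117 and 94.6 CPM in control libraries, with control replicate 1 below every knockout library. The log2 difference of -0.21 (SE 0.19, edgeR adjusted p = 0.458) turned to 0.37 under library size alone and reached -0.40 without control replicate 1 (edgeR adjusted p = 0.0309). As Stat5a and Stat5b are near-identical paralogs, reads that fit both could have been split or dropped by the counting.

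Igf1 is the main growth factor released by liver under growth hormone (ENSMUSG00000020053, chromosome 10, 87858265 to 87937042, plus strand). It had 159, 197 and 109.9 CPM in knockout libraries, against 550.5, 438 and 441 CPM in control libraries. All knockout libraries lay far below all control libraries. The means were 155 ± 43.7 CPM in knockout and 476 ± 64.2 CPM in control libraries (SD, n = 3 each), and Igf1 fell by 1.62 on the log2 scale (SE 0.22, edgeR adjusted p = 0.00245), to 0.326 of the control level. It passed the edgeR test under each alternative run, with log2 fold changes from -1.84 without knockout replicate 2 to -1.03 under library size alone. Igf1 overlaps the antisense gene Igf1os over 5117 bases, but Igf1os had at most 99 counts in any library and Igf1 at least 3527.

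Igfals encodes the acid-labile subunit that holds IGF1 in a complex in the blood (ENSMUSG00000046070, chromosome 17, 24878770 to 24882008, plus strand). Its levels were 125, 127 and 129.5 CPM in knockout libraries and 113, 155 and 163 CPM in control libraries. The knockout values lay inside the range of the controls. On the log2 scale the difference was -0.18 (SE 0.15, edgeR adjusted p = 0.409), with 0.40 under library size alone (edgeR adjusted p = 0.0774) and -0.33 without control replicate 1 (edgeR adjusted p = 0.0276). No test of the difference between Igf1 and Igfals was made.

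Around Igf1, the list of the IGF axis held 14 other genes, of which 12 were tested, 1 rose and 2 fell, near the 12.6% and 13.0% of all genes tested, with a median log2 fold change of 0.40 and a mean of -0.36, which differ in sign. Igf2 and Pappa, with at most 4 counts in any library, were not tested. Igfbp2, a binding protein that holds IGFs in the circulation, had 41.7, 44.7 and 20.4 CPM in knockout libraries, against 1199, 721 and 679 CPM in control libraries. It fell by 4.61 on the log2 scale (SE 0.40, edgeR adjusted p = 0.000687), with no overlap. Igfbp4, another binding protein and the most abundant gene of the list by count, had 1224, 1170 and 972 CPM in knockout libraries, against 2494, 2176 and 2189 CPM in control libraries (log2 fold change -1.03, SE 0.13, edgeR adjusted p = 0.00193). Igf2r, the receptor that clears IGF2, rose, with 131, 127 and 119 CPM in knockout libraries, against 59.6, 82.2 and 70.9 CPM in control libraries (log2 fold change 0.83, edgeR adjusted p = 0.00503). Under library size alone 7 of the 12 rose and 2 fell, where 7711 of all 15135 genes rose and 617 fell.

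Socs2 encodes a feedback inhibitor that marks the receptor for degradation (ENSMUSG00000020027, chromosome 10, 95385362 to 95417180, minus strand). It had 20.1, 11.9 and 10.3 CPM in knockout libraries, against 59.6, 23.8 and 25.6 CPM in control libraries. No knockout library reached a control library, but control replicate 1 stood far above the other controls. The means were 14.1 ± 5.30 CPM in knockout and 36.3 ± 20.2 CPM in control libraries (SD, n = 3 each). The log2 fold change of -1.36 (SE 0.43) did not pass the edgeR test (adjusted p = 0.0611), and without control replicate 1 it was -0.81 (edgeR adjusted p = 0.0658). DESeq2 called it, with -1.38 and an adjusted p of 0.00346.

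Cish encodes the other feedback inhibitor, and its start window is the one printed above with the tandem STAT5 letters (ENSMUSG00000032578, chromosome 9, 107296026 to 107302784, plus strand). It had 21.3, 6.32 and 11 CPM in knockout libraries, against 104.8, 34.3 and 28.1 CPM in control libraries. The groups did not overlap, and replicate 1 was the highest library in both groups for Socs2 and for Cish. The means were 12.9 ± 7.65 CPM in knockout and 55.7 ± 42.6 CPM in control libraries (SD, n = 3 each). The log2 fold change of -2.11 (SE 0.69) did not pass the edgeR test (adjusted p = 0.0742) and was -1.28 without control replicate 1 (edgeR adjusted p = 0.143), while DESeq2 gave -2.13 with an adjusted p of 0.0197. Over 1167 bases Cish overlaps Gm17040 on the other strand, which had at most 29 counts in any library. The authors' deposited table marks both as significant, Cish at a log2 fold change of -2.13 (adjusted p 0.0251) and Socs2 at -1.38 (adjusted p 0.00299). DESeq2 is among the tools the authors name, so that table may rest on the same method as the DESeq2 calls above. That table also marks Ghr, Igf1 and Cux2, which makes 5 of the 10 genes. The authors' deposited table leaves Stat5a unmarked (log2 value 0.55, adjusted p 0.0133), and the smallest absolute log2 fold change it marks anywhere is 1.

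Of 14 further negative regulators of the receptor, JAK and STAT pathway, all were tested, 1 rose and none fell (12.6% and 13.0% of all genes tested did), with a median log2 fold change of 0.05. At an unadjusted p under 0.05 in edgeR, 3 were higher and 1 was lower in the knockout, a limit at which the share of all genes was not counted. DESeq2 called 1 that rose and 0 that fell, where over all genes it called 2193 higher and 2402 lower. The one that rose was Socs5, a relative of Socs2, at 10.6, 11.3 and 8.82 CPM in knockout libraries and 7.79, 6.20 and 6.68 CPM in control libraries (log2 fold change 0.57, edgeR adjusted p = 0.049). Its call held when control replicate 1 was left out and ended when any other library was, with an edgeR adjusted p of at most 0.155. The most abundant member by count was Ptpn11, the phosphatase SHP2, at -0.37 on the log2 scale (edgeR adjusted p = 0.0816), and at 0.22 under library size alone. Under that scaling 8 members rose, as did 7711 of all 15135 genes.

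Bcl6 encodes a repressor that binds many of the sites STAT5 binds in liver (ENSMUSG00000022508, chromosome 16, 23965052 to 23988852, minus strand). It had 13, 62.6 and 23.5 CPM in knockout libraries and 47.6, 21.7 and 21 CPM in control libraries. The groups overlapped fully, with 1 high library in each, knockout replicate 2 and control replicate 1. On the log2 scale the difference was 0.13 (SE 0.65, edgeR adjusted p = 0.899). Its sign turned with single libraries, from -0.74 without knockout replicate 2 to 0.62 without control replicate 1.

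Cux2 encodes a repressor that is characteristic of female mouse liver (ENSMUSG00000042589, chromosome 5, 121856366 to 122050102, minus strand). It had 533, 112 and 686 counts in knockout libraries, against 63, 15 and 21 counts in control libraries. In CPM these were 17.2, 3.56 and 21.4 in knockout libraries and 3.07, 0.715 and 1.13 in control libraries, so that the lowest knockout library, replicate 2, lay just above the highest control library, replicate 1. Cux2 rose by 3.09 on the log2 scale (SE 0.82, edgeR adjusted p = 0.038). Under edgeR the call ended without control replicate 1, 2 or 3 (adjusted p 0.0583, 0.105 and 0.126), without knockout replicate 1 or 3 (0.0936 and 0.0933) and with no count filter (0.149), while the fold change stayed between 2.64 and 3.93. Among knockout libraries, replicate 2 was the highest for Bcl6 and the lowest for Cux2 and Cish.

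**Figure D2:**
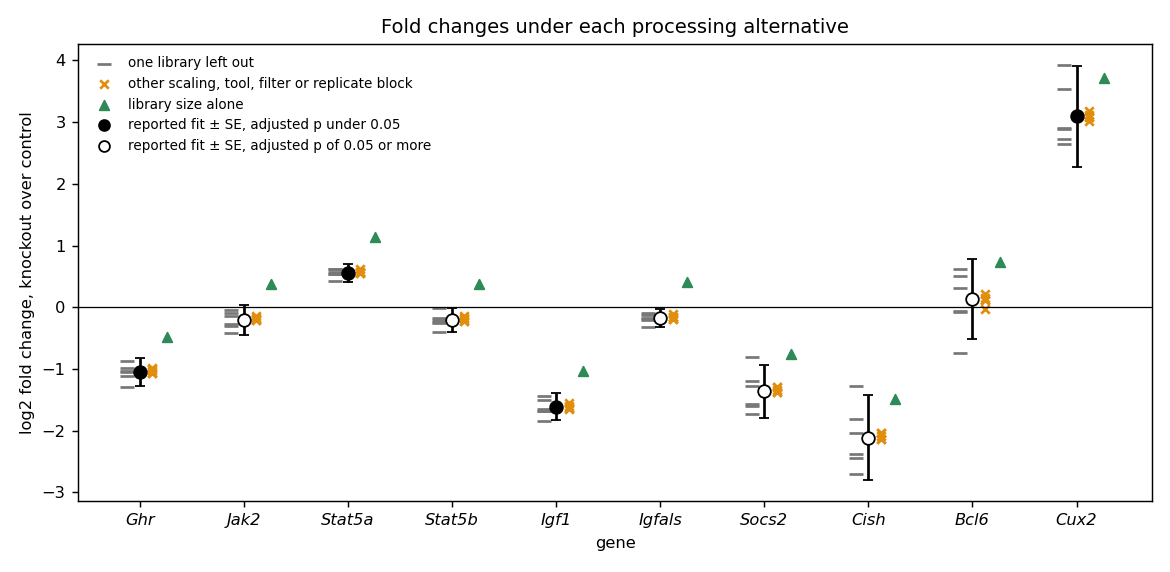
Log2 fold change of the 10 genes, knockout over control, in the reported edgeR fit (circles with SE) and in 12 alternatives (dashes for 1 library left out, crosses for other scalings, tools, filter or replicate block, triangles for library size alone). Igf1 stays below 0 in all of them, Jak2, Stat5b and Igfals move above 0 only under library size alone, and Bcl6 lies on both sides of 0.

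In mouse liver many STAT5 targets differ between the sexes, and lists of 20 male-biased and 20 female-biased genes were drawn from general knowledge of this system with earlier results on Mup11, Mup17, Hsd3b5, Elovl3, A1bg and Cyp2b10 in these libraries in view. Of the 20 male-biased genes, all were tested, 16 fell and none rose (edgeR adjusted p, against 13% that fell among all genes tested), with a median log2 fold change of -3.47. The groups did not overlap for 19 of the 20, the exception being Cyp2u1, whose log2 fold change was 0.12. The summed level of the list was 1692, 3361 and 1355 CPM in knockout libraries, against 18860, 28730 and 27040 CPM in control libraries. Knockout replicate 2 had the highest sum among the knockouts, though far below each control. Without knockout replicate 1 the number that fell was 9, where 1104 of all genes fell. Without control replicates 1 and 3 it was 10 each, where 2514 and 1241 of all genes fell. With no count filter it was 8, where 1828 of all genes fell, against 1960 in the reported fit.

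Slco1a1, an organic anion transporter, had 4.07, 8.32 and 6.48 CPM in knockout libraries, against 163, 337 and 359.7 CPM in control libraries. It fell by 5.51 on the log2 scale (SE 0.43, edgeR adjusted p = 0.000554). Ugt2b38, a glucuronidating enzyme, had 7.98, 13.2 and 7.61 CPM in knockout libraries, against 48.9, 60.2 and 50.1 CPM in control libraries (log2 fold change -2.47, edgeR adjusted p = 0.000602). Cyp2d9, a steroid hydroxylase, had 823, 844 and 893 CPM in knockout libraries, against 1583, 1793 and 1978 CPM in control libraries (log2 fold change -1.06, edgeR adjusted p = 0.00123). These 3 had the smallest adjusted p of the list, and the groups were apart for each. Mup7, a major urinary protein gene and the most abundant of the list by count, had 126, 818 and 20.3 CPM in knockout libraries and 5534, 11684 and 9566 CPM in control libraries, a log2 fold change of -4.80 that did not pass (edgeR adjusted p = 0.057). The Mup genes, and the Cyp4a12, Cyp3a41 and Cyp2b genes, are near-identical copies within their families, so the counting could have split or dropped their reads. The list counts take each copy as a gene of its own, though copies of a family are not independent observations.

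Of the 20 female-biased genes 17 were tested, 13 rose and none fell (against 12.6% that rose among all genes tested). The median log2 fold change of the 17 was 3.002, also with the 2 genes at 0 in the controls set at their lower bound. The filter on low counts keeps a gene that is silent in one group only if it is high in the other, so this count is a description. The 3 genes not tested had few counts. Sult3a1 had 9, 12 and 7 counts in knockout and 2, 0 and 1 in control libraries, Cyp3a16 had 11, 5 and 12 in knockout and 2, 6 and 0 in control libraries, and Cyp3a44 had 1, 2 and 1 in knockout and 1, 2 and 5 in control libraries. The summed level of the tested genes was 549.7, 543 and 536 CPM in knockout libraries, against 198.5, 107.5 and 114 CPM in control libraries. Without knockout replicate 2 the number that rose was 8, where 1221 of all genes rose. Without control replicate 1 it was 17 of 18 tested, where 2407 of all genes rose. With no count filter all 20 were tested and 10 rose, where 2074 of all genes rose. Their median log2 fold change was then 2.51, against 0.12 for all genes.

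Cyp2a4, a testosterone hydroxylase of female liver, had 67.3, 69.5 and 124 CPM in knockout libraries, against 1.17, 0.811 and 1.08 CPM in control libraries. It rose by 6.41 on the log2 scale (SE 0.34, edgeR adjusted p = 0.000274). A1bg, which encodes a plasma glycoprotein, had 16.2, 15 and 27.2 CPM in knockout libraries, against 0.195, 0 and 0.0539 CPM in control libraries (log2 fold change 7.79, edgeR adjusted p = 0.000368). Both were high in every knockout library and near 0 in every control. Acot4, a thioesterase and the most abundant tested gene of this list by count, rose by 1.04 (edgeR adjusted p = 0.0431) although its groups overlapped, with 159.7, 155 and 88.2 CPM in knockout libraries and 89.96, 52 and 54 CPM in control libraries. Cyp2b13 had 110 counts over the knockout libraries and 1 over the controls, a ratio of 69.9 (95% exact counting interval 12.3 to 2790, which covers counting error only). Cyp3a41a had 67 counts in the knockouts and 0 in the controls, at least 14.2-fold higher when 3 counts over the control group are taken as the limit.

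**Figure D3:**
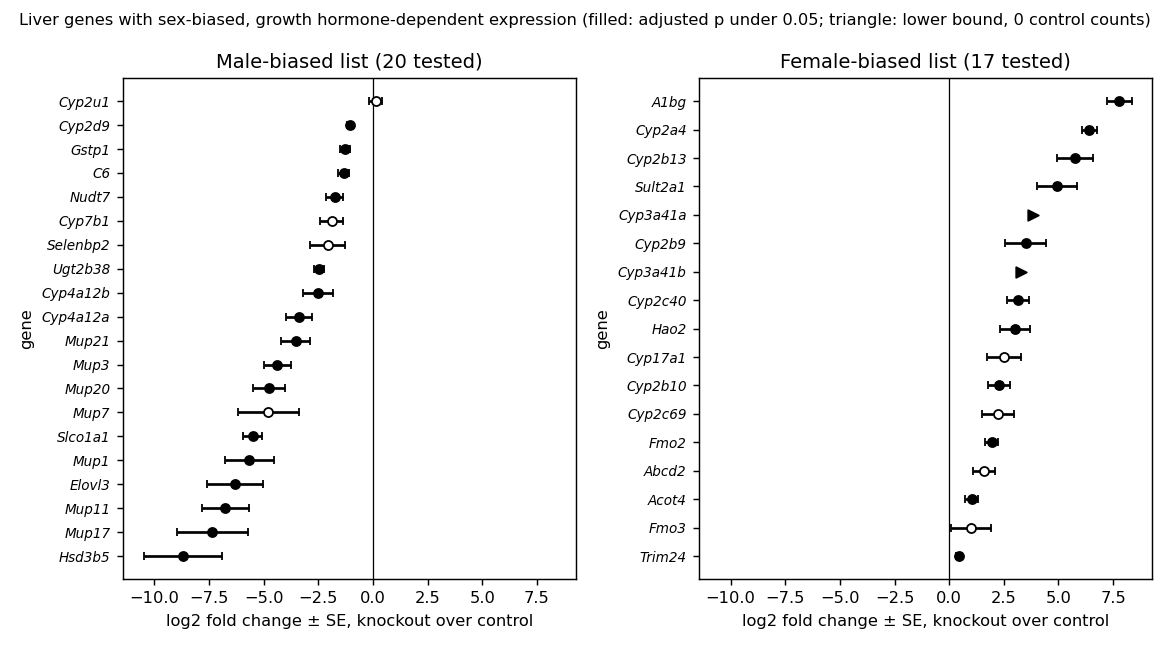
Log2 fold change with SE, knockout over control, of the tested genes of the male-biased (left) and female-biased (right) lists, filled where the edgeR adjusted p was under 0.05 and drawn as a triangle at the lower bound where the controls had 0 counts. Of the male-biased genes 19 of 20 lie below 0, and all 17 tested female-biased genes lie above it.

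The hepatocyte markers, of which all 8 fell, moved in the direction of the male-biased genes. The female-biased genes, of which 13 of 17 tested rose, moved the other way. That count is a description only, given the filter on low counts and the earlier results in view when the lists were drawn. A link between these lists was not tested. Of 11 transcription factors that act beside STAT5 on liver genes, 8 fell and none rose (against 13.0% and 12.6% of all genes tested), and the median log2 fold change was -0.99. By library size alone, 5 fell, where 617 of all 15135 genes fell. Without control replicate 2 the number that fell was 5, where 1282 of all genes fell. Cebpa, Rxra and Foxa1 had the smallest adjusted p. Cebpa, a factor of the mature hepatocyte, had 340.4, 314 and 256 CPM in knockout libraries, against 838, 670.1 and 701.5 CPM in control libraries (log2 fold change -1.28, edgeR adjusted p = 0.00139). Rxra, the partner of many nuclear receptors, fell by 1.18 (edgeR adjusted p = 0.00151), and Foxa1, a factor that opens chromatin, fell by 1.57 (edgeR adjusted p = 0.00164). Hnf4a, the most abundant of the list by count and also counted among the hepatocyte markers, fell by 1.35 (edgeR adjusted p = 0.00224).

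Of 20 other kinases, adaptors and STATs of growth hormone and cytokine receptors, 3 rose and 1 fell, where 12.6% of all genes tested rose and 13.0% fell. Their median log2 fold change was 0.01, as was that of all genes tested to 2 decimals. Src, a kinase that growth hormone receptor can also activate, had 25.8, 23.1 and 31.7 CPM in knockout libraries, against 2.48, 3.29 and 4.42 CPM in control libraries. It rose by 2.98 on the log2 scale (SE 0.24, edgeR adjusted p = 0.000385). Jak1, a kinase of interferon and interleukin receptors, rose by 0.83 (edgeR adjusted p = 0.00224), with 154, 171 and 162 CPM in knockout libraries, against 99.3, 84.7 and 90.5 CPM in control libraries. The adaptor Shc1 fell by 0.46 (edgeR adjusted p = 0.047), but its call ended in several fits. Without 1 library, its edgeR adjusted p reached 0.133, and Shc1 was at 0.13 on the log2 scale when scaled by library size only. Stat3, the most abundant of the list by count, had 230.3, 167 and 192 CPM in knockout libraries and 473, 188 and 176 CPM in control libraries, and did not pass (log2 fold change -0.51, edgeR adjusted p = 0.381). Its direction turned under library size alone (0.11) and without control replicate 1 (0.10). Under library size alone 14 of the 20 rose, as did 7711 of all 15135 genes.

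Profiles over the 6 libraries were compared by the root mean square difference of log2 CPM after centring each gene, among genes with a mean of at least 5 CPM. Nearest to Igf1 were Slc27a2 (0.071), a fatty acid transporter and activating enzyme, H6pd (0.0957), an enzyme of the endoplasmic reticulum, and Apom (0.105), an apolipoprotein. Nearest to Ghr were Tprkb (0.0756), Sh3bgrl2 (0.0952) and Mbl2 (0.0953), a mannose-binding lectin of the complement system. For Socs2 the nearest genes were further away, namely Arfgap3 (0.219), Dnajb9 (0.234) and Cep85 (0.237). Each of them was highest in control replicate 1, as Socs2 was, which follows from choosing them by likeness to its profile. Slc27a2 had 445, 628 and 323 CPM in knockout libraries, against 1554, 1352 and 1372 CPM in control libraries.

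In ChIP there was 1 library per genotype and no test. The control list held 22793 summits in 16995 distinct regions and the knockout list 1649 summits in 1309 regions. Over the 10 genes lay 101 regions of the control list and none of the knockout list. In the control list 7 of the 10 genes carried a region, against 39.2% of the genes tested. In the knockout list it was 0 of 10, against 3.9% of the genes tested, so that most genes have no region in a list of this length. The 10 genes had a median length of 46536 bases, against 19538 for all genes tested, and longer genes offer more room for a region. Fold over background is the authors' own value for each summit.

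Igf1 had the widest cover, with 65 summits in 42 regions over 36292 of its 78778 bases, or 46.1% of the gene. Only 14 tested genes had more regions and 247 had a higher share covered, where the median share was 2.03% among genes with any region. Its summits ran from 1806 to 78216 bases past the gene start of the count table, and the highest fold was 12.5. The Igf1 start window printed above lies inside one of these regions. Cish had 3 regions over 38.7% of its length, and the one with the highest fold, 7.33, spans chromosome 9, 107296328 to 107296856, and so contains the tandem STAT5 letters of the printed window. Ghr had 39 regions over 5.96% of its 265733 bases, with a highest fold of 9.65. Bcl6 had 6 regions over 14.2% of its length, the strongest summit at 215 bases before the gene start with a fold of 7.13, and none over the printed second start window. The first Bcl6 start window, not printed, holds 1 match, 118 bases before its start. That window lies inside the control region from 23987645 to 23989224. Stat5b had 6 regions and Stat5a 3, Socs2 had 2 with its stronger summit 207 bases past the start at a fold of 6.51, and Jak2, Igfals and Cux2 had none over the gene. A region near the Jak2 start lies within 1000 bp of it but outside the gene, and with it 7 of the 10 genes had a region within 1000 bp of the start, against 31.9% of the genes tested, while the knockout list had 0 of the 10 there, against 2.01%. Cux2, at 3.07, 0.715 and 1.13 CPM in control RNA libraries, had no control region over its 193737 bases. Igfals, at 113, 155 and 163 CPM in control RNA libraries, had none over the gene either.

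**Figure D4:**
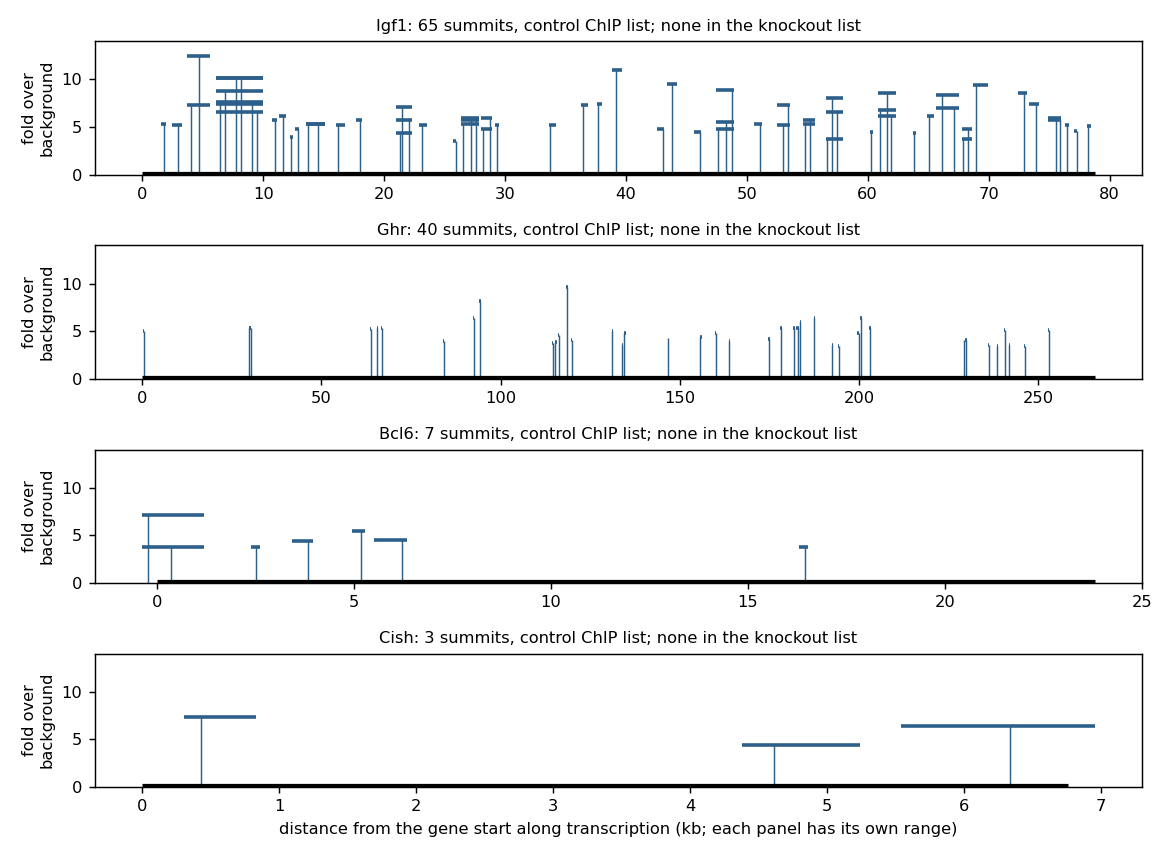
Control ChIP summits over Igf1, Ghr, Bcl6 and Cish by distance from the gene start in kb along transcription, with the fold over background as height, horizontal bars for region width and a black bar for the gene. The 65 summits of Igf1 are spread along the whole gene, the 7 of Bcl6 lie mostly in its first 7 kb, and the knockout list has none over the 4 genes.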

How the data were processed

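The authors deposited whole-number counts per Ensembl gene on mm10 for 6 RNA libraries, and HISAT2 2.1.0, Bowtie2 2.2.3 and HTSeq 0.6.0 are named, per the submitters' processing notes, without roles or strand setting. Beside the counts, the deposited table has the authors' ratio, its log2, p-values and a mean of scaled counts (a signal). DESeq2 is named among the authors' tools without a version, so these values may come from it. BWA, SAMtools and deepTools are also named without versions. The 2 deposited ChIP lists, 1 per library, hold for each summit a score, the fold over background, and p and q as −log10, and MACS2 is named without a version in the submitters' processing notes. The sources do not say whether an input was used.

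Low counts were removed by filterByExpr (minimum 10, total 15), and libraries were scaled by TMM and tested with edgeR 4.0.16 in R 4.3.3 (quasi-likelihood, robust, two-sided, genotype only), with SE taken as the absolute log2 fold change over the square root of F. The common biological coefficient of variation was 0.235. Alternatives were DESeq2 1.42.0, other scalings, no filter, a replicate block and leaving out each library. Likeness used log2 of CPM plus 0.5. Regions counted as over a gene from 1 base of overlap. Named genes were the 10 genes, the called members of each list (the 3 with the smallest adjusted p where more than 5 passed in a direction), the most abundant member, the sex-linked transcripts and the nearest profiles. The genes and lists were chosen with earlier results of these data known. No protein sequences were used here. Of the called list members, 1 is not reported here.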

Additional observations from a re-analysis of the deposited data

How the results depend on the processing

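Igf1 kept its direction and its call in all 12 alternatives. Under library size alone Ghr was at -0.48 and lost its call, and Jak2, Stat5b and Igfals turned to 0.37, 0.37 and 0.40, with Ptpn11, Shc1 and Stat3 at 0.22, 0.13 and 0.11; 7711 genes were then higher and 617 lower in the knockout, against 1905 and 1960. DESeq2 called Socs2 (-1.38) and Cish (-2.13). With no count filter Cux2 (3.11) lost its call. In that fit 8 male-biased genes fell and 10 of 20 female-biased genes rose, where 1828 of all genes fell and 2074 rose. The spacer of 1 more base left 0 of the 16 windows of these genes with a match. The causes were not tested, apart from the scaling, which moves all genes up together.

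With the replicate block Socs2 (-1.30, edgeR adjusted p = 0.0041) and Cish (-2.03, edgeR adjusted p = 0.00509) passed and Bcl6 turned to -0.036. Same-numbered libraries had deviation correlations of 0.126, 0.0505 and 0.112, and each library correlated best with its own number, a hint from the data only, since the labels do not say that the numbers pair animals. The block gave 1713 genes higher and 1755 lower.

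Leaving out 1 library at a time, log2 fold changes ranged from -1.29 to -0.88 for Ghr, 0.42 to 0.63 for Stat5a, -0.40 to -0.013 for Stat5b, -0.33 to -0.086 for Igfals, 2.64 to 3.93 for Cux2, -0.74 to 0.62 for Bcl6 and -0.76 to 0.10 for Stat3. Genes higher in the knockout numbered 1119 to 2407 and genes lower 1104 to 2514, male-biased genes that fell 9 to 18 and female-biased genes that rose 8 to 17. The number of the 10 genes with a control ChIP region was 7 with a summit inside the gene, 9 with 2000 more bases on each side and 6 at a -log10 q of at least 5. Of all genes tested, 34.4%, 44.4% and 25.1% had a region in these settings, against 39.2% in the main count. At the q limit the regions over the 10 genes numbered 36, against 101. With 3 libraries a group, a gene missing the threshold is not shown to be alike in both groups.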

Other observations

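Control replicate 1 differed from the other controls in further genes of cytokine feedback and of the IGF axis, chosen after their values were seen. Socs3, the feedback inhibitor induced by interleukin 6, had 696, 536 and 351 counts in knockout libraries and 3679, 329 and 277 counts in control libraries. Socs1, which restrains interferon signalling, had 21, 29 and 31 counts in knockout libraries and 242, 15 and 10 counts in control libraries. Igfbp1, an IGF binding protein of fasting and stress, had 50.6, 78.9 and 45.9 CPM in knockout libraries and 1114, 132 and 122 CPM in control libraries, so that the groups did not overlap, but its log2 fold change of -2.96 did not pass the edgeR test (adjusted p = 0.0842).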
